A study of Mus musculus with 12 samples.

Results

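The 10 genes described here encode the enzymes and carriers that take long-chain fatty acids into mitochondria and oxidize them, and they were chosen by name from 43278 gene symbols. They are Cpt1a, Slc25a20 and Cpt2 of the carnitine shuttle, the acyl-CoA dehydrogenases Acadvl, Acadl and Acadm, the trifunctional protein subunits Hadha and Hadhb, the thiolase Acaa2 and the auxiliary isomerase Ech1. All 10 were in the table and all 10 passed the filter on low values in every comparison. Poly(A) RNA was sequenced from 12 cultures of PMφs, macrophages that thioglycolate recruits to the peritoneal cavity of mice, to ask how a load of oxidized low-density lipoprotein (oxLDL) alters their transcriptome at rest and after lipopolysaccharide (LPS). All PMφs came from wild-type C57BL/6J mice, young adults of both sexes, and were collected by lavage 4 days after 1 ml of 4% thioglycolate, cultured for 18 h and then treated. The 4 groups of 3 libraries were control PMφs, PMφs kept for 24 h with 100 µg/ml human oxLDL (oxLDL), PMφs given 10 ng/ml LPS (LPS), and PMφs given the oxLDL and then the LPS (oxLDL+LPS). How long LPS was present is not stated for these libraries. Each culture came from cells pooled over several mice, so a replicate is a pool and not an animal.

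Long-chain fatty acids are first bound to coenzyme A, and CPT1A on the outer mitochondrial membrane passes the acyl chain to carnitine. The carrier encoded by Slc25a20 brings acylcarnitine inside, where CPT2 returns the chain to coenzyme A, and each turn of β-oxidation then runs through a dehydrogenase, a hydratase, a second dehydrogenase and a thiolase to release acetyl-CoA. In macrophages this pathway is best known from cells that take up lipids and from alternatively activated cells, and LPS-activated macrophages are known for relying on glycolysis.

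The values are the authors' read counts scaled by 1 factor per library, called normalized counts here. Libraries summed to between 17152972 and 26384551 normalized counts, the sums being higher with LPS (22071853 to 26384551) than without (17152972 to 17709731). The implied reads on genes ran from 16725738 to 26178431 per library, and counting error alone was at most 7.43% for any value of the 10 genes. A difference is given on the log2 scale of the normalized count plus 1, with its standard error (SE), and a gene is called at a Benjamini-Hochberg adjusted p under 0.1 from limma over all genes tested.

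The labels give each group replicate numbers 1 to 3. Sex-linked transcripts showed that number 1 was not 1 pool in all 4 groups. The female-specific Xist was at 1 and 2 in the control and oxLDL libraries of number 1 and at 6331 and 3812 in its LPS and oxLDL+LPS libraries. The Y-linked Ddx3y was at 1156 and 1132 in the former and at 459 and 439 in the latter. In number 2, Ddx3y was at 0 to 2 and Xist at 5933 to 7751 in all 4 libraries, and in number 3 both were present at like levels in all 4. Number 1 therefore paired libraries with and without oxLDL, but its libraries with and without LPS held cells of a different sex mix, and LPS results are given with and without number 1. The summed level of 7 macrophage markers was between 231531 and 342060 in every library, the 5 adipocyte markers summed to 5 at most, and the 6 mesothelial and fibroblast markers summed to 2775 to 17135, with Col1a1 at 6800 to 12012 in number 1, 5517 to 6937 in number 2 and 1782 to 2193 in number 3. The 5 T cell markers summed to 13 to 27 without LPS and 81 to 239 with LPS, nearly all of it Lck, the other 4 being under 10 in every library. Of the eosinophil markers, Siglecf was at 315 to 383 in control, 180 to 303 with oxLDL, 99 to 124 with LPS and 55 to 104 with both, a fall with LPS in the same direction as that of most of the 10 genes, while Prg2 and Ear6 were at 0 throughout and Epx at 0 or 1. Of 5 markers of resident peritoneal macrophages, Timd4 was at 1 to 16 without LPS and 97 to 230 with it. The group means of Icam2, Selp and Prg4 were also higher with LPS. Gata6 went the other way, with means of 303 in control, 262 with oxLDL, 242 with LPS and 168 with both. The neutrophil marker S100a8 was at 31 to 49 without LPS and 74 to 248 with it. Among the other neutrophil markers, Ly6g was at 0 in every library, S100a9 at 0 or 1 and Retnlg at 0 to 3. Mmp8 had lower means with LPS, 363 against 551 without oxLDL and 497 against 686 with it. The part of these differences in the results was not tested. In bulk RNA, fewer cells of a type and less RNA per cell cannot be told apart.

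Cpt1a, the gene of the step that admits acyl chains to the carnitine shuttle, is a plus-strand gene of chromosome 19, between 3322334 and 3385733 in GRCm38. Cpt1a stood at 2613, 2447 and 2974 normalized counts in numbers 1 to 3 of control PMφs, 3547, 3190 and 4260 with oxLDL, 2560, 1683 and 2542 with LPS, and 4631, 2705 and 4483 with oxLDL+LPS. Both groups given oxLDL lay above their counterparts without it, every oxLDL+LPS library being above every LPS library, and number 2 was the lowest of its group throughout. Slc25a20, the carnitine-acylcarnitine carrier, was at 426, 387 and 437 in control, 521, 442 and 485 with oxLDL, 444, 357 and 415 with LPS, and 569, 415 and 513 with both. Its groups overlapped except that every oxLDL library was above every control library. Cpt2, the inner-membrane transferase, was at 385, 374 and 363 in control, 417, 385 and 357 with oxLDL, 304, 318 and 312 with LPS, and 343, 269 and 316 with both. Every library with LPS was below every library without it.

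The 250 bases before the RefSeq start of Cpt1a (chr19:3323051-3323300, plus strand, GRCm38.p6) are shown because Cpt1a had the largest rise with oxLDL of the 10 genes, and capitals mark the 1 match to the nuclear receptor element AGGTCA, read on the other strand, 94 to 89 bases before the start:
Cpt1a: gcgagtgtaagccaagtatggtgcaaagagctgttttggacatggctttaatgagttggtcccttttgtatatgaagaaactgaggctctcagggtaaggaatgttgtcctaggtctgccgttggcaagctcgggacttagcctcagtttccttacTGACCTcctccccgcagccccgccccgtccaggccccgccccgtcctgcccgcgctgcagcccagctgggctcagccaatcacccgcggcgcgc
On either strand, AGGTCA occurred in 3 of the 9 promoters searched for these genes (Cpt1a, Acadm and Acadvl) and in 14.024% of 32851 promoters of this length. Its direct repeat with 1 base between (DR1) was in 0 of the 9 and 0.033% of all, and the ERR element TCAAGGTCA, which like DR1 contains AGGTCA, in 0 of the 9 and 0.387%. The core of the antioxidant response element, TGACNNNGC, was in 0 of the 9 and 10.161% of all. Acaa2 was not matched.

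Acadl, which encodes the long-chain acyl-CoA dehydrogenase, moved apart from the other dehydrogenases. Acadl was at 2339, 1963 and 2215 in control, 2798, 2366 and 2763 with oxLDL, 2528, 2726 and 3159 with LPS, and 2759, 2781 and 3114 with both. Every control library was below every library of the other 3 groups in the deposited scaling, although with 1 total per library or quantile normalization the difference between LPS and control turned to −0.12. Acadm, the medium-chain dehydrogenase, was at 842, 721 and 903 in control, 835, 826 and 855 with oxLDL, 488, 463 and 502 with LPS, and 600, 480 and 601 with both. Libraries with LPS were all below those without. Acadvl, the very-long-chain dehydrogenase of the inner membrane, was at 584, 538 and 570 in control, 609, 588 and 628 with oxLDL, 371, 422 and 411 with LPS, and 499, 413 and 553 with both. Its 3 LPS libraries were below all others but 1 of oxLDL+LPS. Acadvl shares 1151 exonic bases, 42.9% of its exons, with Dvl2 on the other strand. Dvl2 was at 484 to 529 in control and 242 to 311 in LPS PMφs, and since the use of strand in counting is not stated, its part in the Acadvl values was not tested.

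Hadha and Hadhb encode the subunits of the trifunctional protein, which carries out the last 3 steps of a turn on long chains. They lie head to head on chromosome 5, Hadha from 30118304 to 30155162 on the minus strand and Hadhb from 30155248 to 30184593 on the plus strand, 85 bases apart. Hadha was at 2822, 2805 and 2695 in control, 3125, 2883 and 2814 with oxLDL, 2070, 2490 and 2364 with LPS, and 2221, 2528 and 2252 with both. Hadhb was at 1302, 1032 and 1188 in control, 1546, 1119 and 1292 with oxLDL, 624, 622 and 646 with LPS, and 700, 631 and 668 with both. Both fell apart into libraries with and without LPS with no overlap, and the gap was wider for Hadhb. Near-identical copies of Hadhb are annotated elsewhere, Gm13910 (99.8% over 1428 aligned bases) and Gm9108 (97.6% over 1426), so reads shared with them make its level uncertain. Gm13910 itself was at 5 to 13.

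The bases just before Hadhb (chr5:30155003-30155252, plus strand, GRCm38.p6) are shown because they fill most of the 272 bases between the RefSeq starts of the 2 genes, whose transcripts leave this stretch in opposite directions; it holds no match to the motifs above and so no capitals:
Hadhb: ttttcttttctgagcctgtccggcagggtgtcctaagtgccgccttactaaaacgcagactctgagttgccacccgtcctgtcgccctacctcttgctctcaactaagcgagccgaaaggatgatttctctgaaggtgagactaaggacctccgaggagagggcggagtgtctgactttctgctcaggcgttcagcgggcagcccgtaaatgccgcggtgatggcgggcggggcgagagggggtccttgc

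Acaa2, the thiolase that can close each turn on shorter chains, was at 691, 590 and 651 in control, 899, 811 and 712 with oxLDL, 246, 251 and 256 with LPS, and 390, 312 and 327 with both. Its 4 groups did not overlap at all. Ech1, an isomerase that handles chains with double bonds, was at 986, 920 and 1077 in control, 1249, 1017 and 1293 with oxLDL, 523, 447 and 589 with LPS, and 660, 574 and 748 with both. Libraries with LPS were again all below those without.

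**Figure D1:**
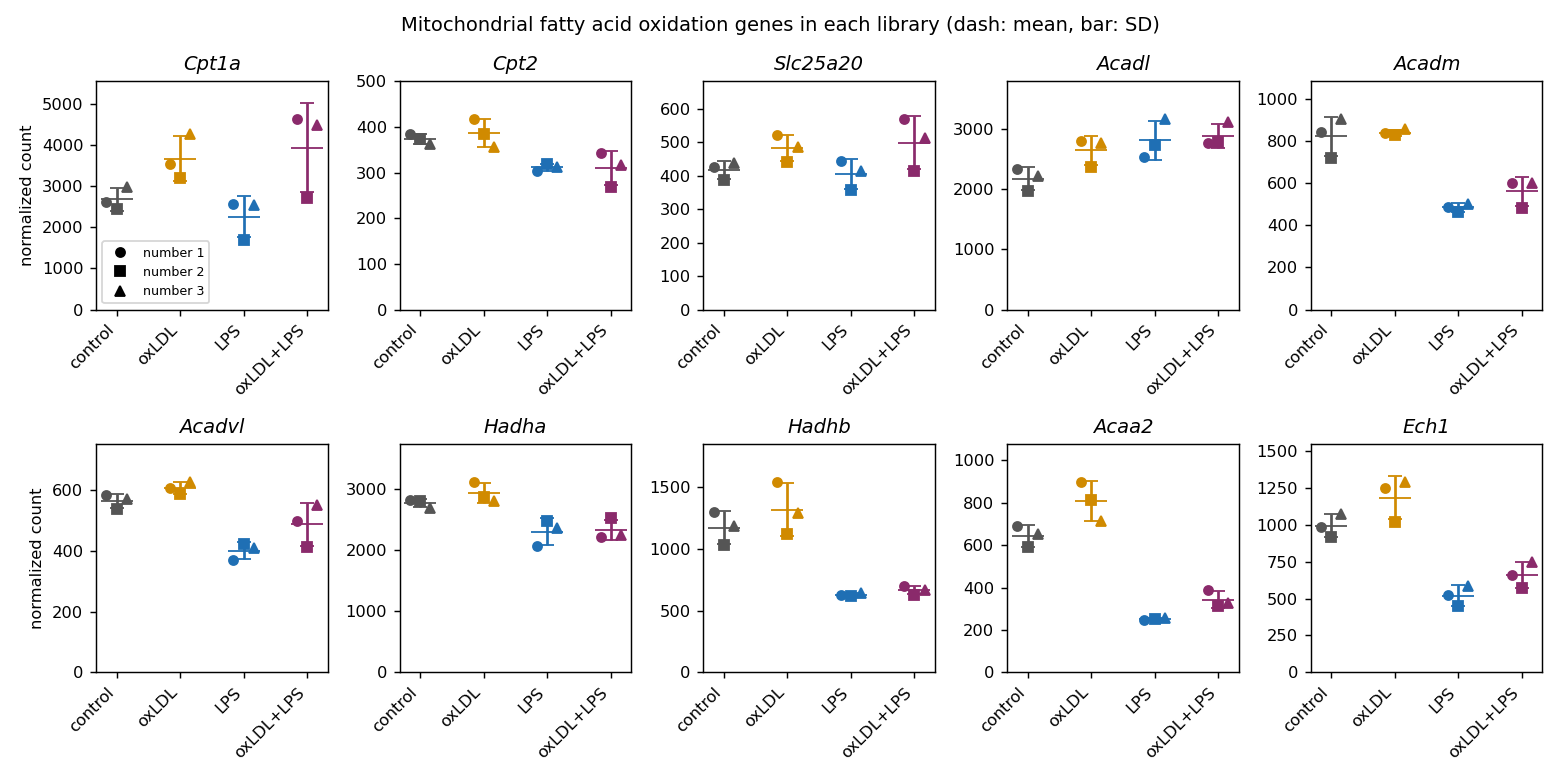
Normalized count (y axis, from 0) of each of the 10 genes in the 12 libraries by group (x axis), with marker shape for the replicate number, a dash for the group mean and a bar for the SD (n = 3). Acaa2, Ech1, Hadhb and Acadm sit lower in both groups with LPS, and Acadl does not. The mean of Cpt1a is highest with oxLDL+LPS, where its libraries overlap those of oxLDL. Scaling every library to 1 total instead turns the Acadl difference between LPS and control to −0.12. It also makes the Cpt1a difference between oxLDL+LPS and oxLDL negative.

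Levels per kilobase were divided by the union of all annotated exons of a gene, 2005 bases for Acadl, 7642 for Cpt1a and 8730 for Hadha. The order of the genes therefore depends on the annotation. Before division, the control means of Hadha (2774) and Cpt1a (2678) were above that of Acadl (2172). Per kilobase of annotated exon, Acadl had the highest level of the 10 genes in each group. It was at 1083 ± 95.6 normalized counts per kb in control (SD, n = 3) and 1399 ± 161 with LPS. In control PMφs it was followed by Ech1 (435 ± 34.5), Acaa2 (425 ± 33.6), Cpt1a (350 ± 35.3) and Hadha (318 ± 7.90), of which Ech1 and Acaa2 differed by less than the SD of either and Cpt1a and Hadha by less than that of Cpt1a. Acadm and Acadvl came next at 210 ± 23.7 and 210 ± 8.78, then Hadhb (178 ± 20.6), Cpt2 (156) and Slc25a20 (86.0 ± 5.42). With LPS the order changed below Acadl. Cpt1a (296 ± 65.6) and Hadha (264 ± 24.7) stood above Ech1 (228 ± 31.1), and Acaa2 dropped to 166 ± 3.30, close to Acadvl (149 ± 9.99). Hadhb (95.6 ± 2.02) and Slc25a20 (83.7 ± 9.14) were the lowest.

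LPS against control showed what the endotoxin did to the pathway in cells without added lipid. Of the 10 genes, 7 fell, 1 rose and 2 were not called, in a background where 61.7% of 13023 genes were called, 31.4% higher and 30.3% lower. Acaa2 had the lowest difference of the 10 genes and went from 644 ± 50.9 to 251 ± 5 normalized counts (SD, n = 3), a log2 difference of −1.35 (SE 0.10, adjusted p = 2.78e-05, limma). Ech1 fell by 0.94 (SE 0.13, adjusted p = 4.89e-04, limma) and Hadhb by 0.89 (SE 0.11, adjusted p = 2.78e-04, limma). Of the dehydrogenases, Acadm fell by 0.76 (SE 0.11, adjusted p = 7.98e-04, limma) and Acadvl by 0.49 (SE 0.10, adjusted p = 0.00434, limma). Both were lower in all 3 replicate numbers, as were 38.5% of all genes, although the control and LPS libraries of number 1 were not 1 pool. Hadha fell by 0.27 (SE 0.09, adjusted p = 0.0436, limma) and Cpt2 by 0.26 (SE 0.10, adjusted p = 0.0543, limma). Acadl rose by 0.37 (SE 0.11, adjusted p = 0.0278, limma), a direction that turned to −0.12 both with every library scaled to 1 total and with quantile normalization. Without control number 2 the Acadl call was lost (0.29, adjusted p = 0.102, limma) and 5 of the 10 genes were called, all lower. Of all genes tested, 3649 were then called higher and 3291 lower. Cpt1a (−0.27, SE 0.17, adjusted p = 0.233, limma) and Slc25a20 (−0.04, SE 0.12, adjusted p = 0.786, limma) were not called. With the replicate number as a block, Cpt1a was called lower as well (adjusted p = 0.0736, limma), which gave 1 higher and 8 lower against a background of 68.7% (34.6% higher and 34.1% lower).

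The median of the 10 differences was −0.38, beside −0.00 over all genes tested. The LPS and control libraries of 7 genes did not overlap with LPS lower, and those of Acadl did not overlap with LPS higher, where 31.1% and 32.1% of all genes did the same. Without number 1, whose control and LPS libraries held a different sex mix, 5 genes were called lower (Acadm, Acadvl, Hadhb, Acaa2 and Ech1) and Acadl higher, while Hadha (−0.18, adjusted p = 0.196, limma) and Cpt2 (−0.23, adjusted p = 0.203, limma) were not; the background was then 54.2%, 28.1% higher and 26.1% lower. With the block and without number 1 the calls were 1 higher and 6 lower, Cpt1a among the latter (−0.38, adjusted p = 0.0166, limma), against 66.9% (34.2% higher and 32.6% lower). With 1 total per library the median over all genes moved to −0.48, the called genes went from 4093 higher and 3946 lower to 2210 higher and 7200 lower, and 9 of the 10 enzymes were called lower with 0 higher, against 72.3%.

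**Figure D2:**
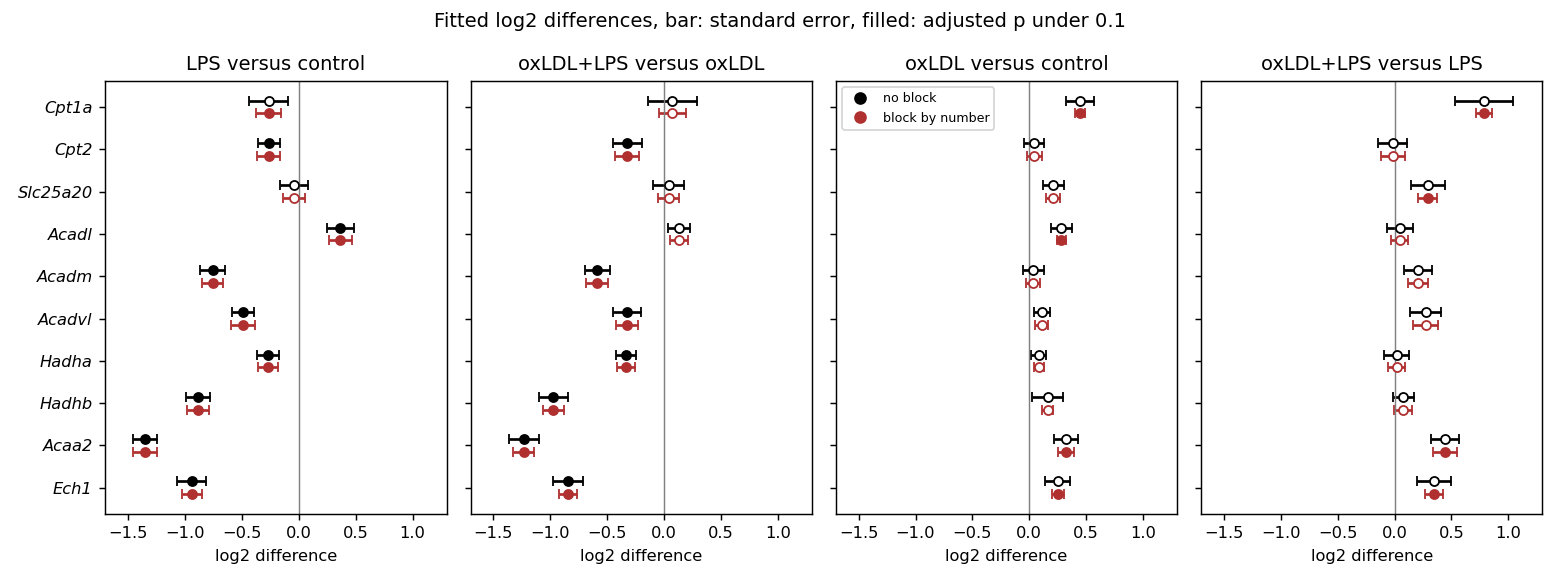
Fitted log2 difference (x axis) of each gene (y axis) in the 4 comparisons, with bars for the standard error, black without a block and red with replicate number as the block, and filled points for an adjusted p under 0.1 from limma. Acaa2, Ech1 and Hadhb lie between −1.35 and −0.84 in both LPS comparisons, and Cpt1a is the farthest to the right in both oxLDL comparisons; the Acadl difference with LPS turns negative when every library is scaled to 1 total.

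The fall with LPS was unequal between the transcripts of the 2 trifunctional protein subunits. The ratio of Hadha to Hadhb in the same library, which no single factor per library can change, was 2.17, 2.72 and 2.27 in control, 2.02, 2.58 and 2.18 with oxLDL, 3.32, 4.00 and 3.66 with LPS, and 3.17, 4.01 and 3.37 with both. Each library with LPS was above each library without. The log2 ratio was higher with LPS by 0.62 in the absence and by 0.64 in the presence of oxLDL (exact two-sided permutation test, p = 0.1 each, the smallest that 3 against 3 allow). Within replicate numbers 1, 2 and 3 the former was 0.61, 0.56 and 0.69, where the control and LPS libraries of number 1 were not 1 pool. The transcripts for the subunits of 1 complex thus stood at different ratios, with the uncertainty of Hadhb given above, and protein was not measured. These ratios were chosen after the values were seen.

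The dehydrogenases also parted. Acadl over Acadm was 2.65 in control as a geometric mean (2.45 to 2.78), 3.14 with oxLDL (2.86 to 3.35), 5.77 with LPS (5.18 to 6.29) and 5.17 with both (4.60 to 5.79). Acadl over Acadvl was 3.84 (3.65 to 4.01), 4.33 (4.02 to 4.59), 6.97 (6.46 to 7.69) and 5.94 (5.53 to 6.73). Both ratios were higher in every library with LPS than in any without (exact two-sided permutation test of each LPS comparison, p = 0.1). Against control this followed from the single genes, since Acadl was higher and Acadm and Acadvl lower in every LPS library. The test of the ratios adds nothing there. All the ratios given here were chosen after the values were seen, and the share of all gene pairs that separate likewise was not computed. In the carnitine shuttle, Cpt1a over Cpt2 was 7.14 in control, 9.44 with oxLDL, 7.13 with LPS and 12.4 with both. Within each LPS state that ratio did not overlap between groups with and without oxLDL, with a log2 difference of 0.40 without and 0.80 with LPS (exact two-sided permutation test, p = 0.1 each).

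**Figure D3:**
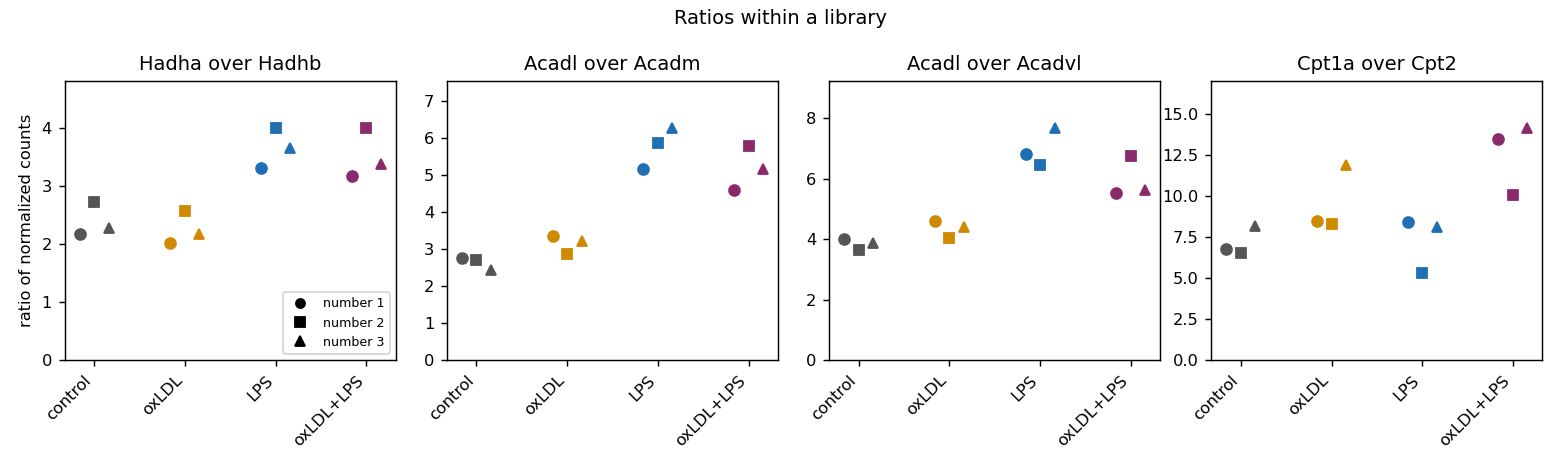
Ratio of normalized counts within each library (y axis, from 0) by group (x axis) for 4 pairs of genes, with marker shape for the replicate number. Hadha over Hadhb lies between 2.02 and 2.72 without LPS and between 3.17 and 4.01 with it, and Cpt1a over Cpt2 is higher in the groups with oxLDL than in their counterparts.

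In PMφs that already held oxLDL, LPS was compared through oxLDL+LPS against oxLDL. Here 7 of the 10 genes were called lower and 0 higher, where 54.5% of 12900 genes were called, 28.2% higher and 26.3% lower. Acaa2 fell by 1.23 (SE 0.13, adjusted p = 2.42e-04, limma), Hadhb by 0.97 (SE 0.13, adjusted p = 6.83e-04, limma) and Ech1 by 0.84 (SE 0.14, adjusted p = 0.00185, limma). Acadm fell by 0.59 (SE 0.11, adjusted p = 0.00390, limma), and Hadha, Acadvl and Cpt2 fell by 0.33, 0.33 and 0.32 (adjusted p = 0.0159, 0.0641 and 0.0744, limma). Cpt1a (0.07), Slc25a20 (0.04) and Acadl (0.13) were not called, and all 3 turned negative with 1 total per library (−0.32, −0.35 and −0.26), which gave 9 lower calls against 67.2%. With the replicate number as a block the count was again 7 lower and 0 higher, against 63.4% (32% higher and 31.4% lower). The 7 called genes had no overlap between the groups, as 28.0% of all genes did in the lower direction. Without number 1 the calls were 4, those of Acadm, Hadhb, Acaa2 and Ech1, against a background of 44.7% (23.7% higher and 21% lower). With the block and without number 1 they were 7 lower and 1 higher (Acadl, 0.20, adjusted p = 0.0728, limma), against 62.3% (31.8% higher and 30.5% lower).

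The effect of oxLDL at rest was smaller. All 10 genes were higher on average, with a median difference of 0.19 beside −0.01 over all 12751 genes, but limma called 0 genes (a background of 0%), with 3 of the 10 and 381 of all genes at an unadjusted p under 0.05. With the replicate number as a block, 4 of the 10 genes were called, all higher, where 4.71% of genes were called, 1.8% higher and 2.92% lower. These were Cpt1a (0.45, SE 0.04, adjusted p = 9.40e-04, limma), Acadl (0.28, SE 0.04, adjusted p = 0.00832, limma), Acaa2 (0.32, SE 0.07, adjusted p = 0.0288, limma) and Ech1 (0.25, SE 0.05, adjusted p = 0.0309, limma). Acadl was higher by 0.26, 0.27 and 0.32 in numbers 1, 2 and 3. Ech1 differed by 0.34, 0.14 and 0.26. Cpt1a, Slc25a20, Acadl, Acadvl and Acaa2 did not overlap between the groups, and 3.79% of all genes did likewise. Of the 10 genes, 8 were higher in all 3 numbers, as were 17.5% of all genes, the exceptions being Cpt2 and Acadm. When all 12 libraries shared the spread, with the block set within each LPS state because of number 1, 2 genes were called, Cpt1a (adjusted p = 0.0184, limma) and Acadl (adjusted p = 0.0740, limma), against 0.519%. With the block by number over all 12 libraries 0 of the 10 were called (Cpt1a adjusted p = 0.501, limma), against 0.0371%, and 5 of the 10 had an unadjusted p under 0.05.

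The effect of oxLDL under LPS was read from oxLDL+LPS against LPS. Cpt1a rose most, and Acaa2, Ech1 and Slc25a20 with it, once the replicate number was a block. Without the block limma called 0 of 12786 genes (0%), with 2 of the 10 genes and 890 of all genes at an unadjusted p under 0.05. With it 4 of the 10 genes were called, all higher, where 13.2% of genes were called, 4.42% higher and 8.74% lower. Cpt1a rose by 0.79 (SE 0.07, adjusted p = 0.00347, limma), a 1.72-fold difference that ranked 3 of 12786 by p, and was higher by 0.85, 0.68 and 0.82 in numbers 1, 2 and 3. Ech1 was higher by 0.35 (SE 0.08, adjusted p = 0.0327, limma), with 0.34, 0.36 and 0.34 in the 3 numbers. Acaa2 was higher by 0.44 (SE 0.11, adjusted p = 0.0405, limma) and Slc25a20 by 0.29 (SE 0.08, adjusted p = 0.0710, limma). Cpt1a and Acaa2 did not overlap between the groups, and 6.18% of all genes did likewise. Acadl (0.04), Hadha (0.02) and Hadhb (0.08) were not called, nor was Cpt2 (−0.02, or 0.07 with 1 total per library).

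These blocked calls rest on 3 pairs. At rest, leaving out number 1, 2 or 3 gave 2, 1 and 6 calls among the 10, all higher, against 1.73% (0.727% higher and 1% lower), 1.12% and 10.3% of all genes. Under LPS it gave 1, 6 and 0, against 0.579% (0.0978% higher and 0.481% lower), 23.9% and 0%. With all 12 libraries and the block within each LPS state, 6 genes were called under LPS, the 4 above with Acadvl (0.27, adjusted p = 0.0708, limma) and Acadm (0.20, adjusted p = 0.0991, limma), against 21.7%, and with the block by number over all 12 libraries 4 were called, against 7.53%.

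**Figure D4:**
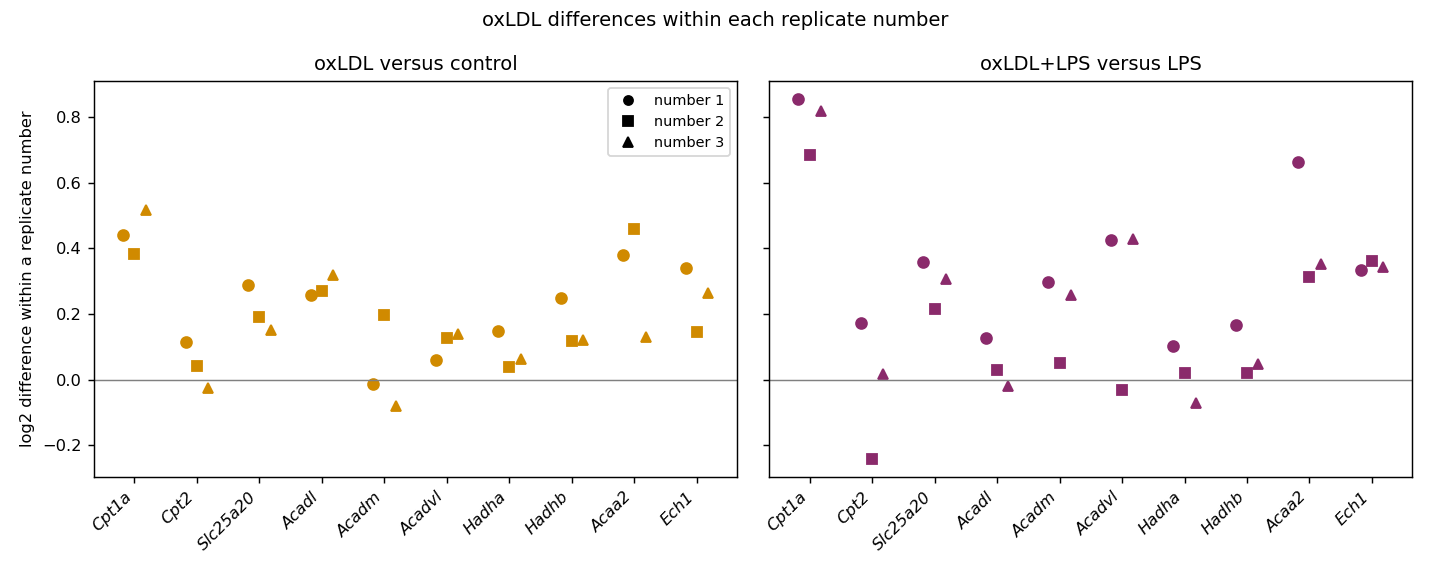
Log2 difference between the library with oxLDL and the library without it (y axis) for each gene (x axis) and replicate number (marker shape), without LPS on the left and with LPS on the right. Cpt1a lies at 0.38 to 0.52 without LPS and at 0.68 to 0.85 with LPS, and Cpt2 and Acadm have numbers on both sides of 0 without LPS.

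Whether LPS changed the effect of oxLDL was tested by the interaction over all 12 libraries. Without a block limma called 0 of 13482 genes (0%), and with the replicate number as a block also 0, with 418 genes and 0 of the 10 enzymes at an unadjusted p under 0.05 in the former. Cpt1a had the largest estimate of the 10, 0.34 (SE 0.31 without a block), and Acadl the most negative, −0.24 (SE 0.15). With the block set within each LPS state, 147 genes (1.09%) were called and none of the 10, Cpt1a being closest (adjusted p = 0.102, limma), then Acadl (adjusted p = 0.187, limma). The estimates of the other 8 ran from −0.08 to 0.17.

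Around the 10 genes, the rest of fatty acid oxidation was read from lists written by hand. Of 18 other genes of matrix β-oxidation and electron transfer, all tested, 12 were called lower with LPS and 0 higher, with a median of −0.73. Of all genes tested, 30.3% were called lower and 31.4% higher. Hadh, the short-chain hydroxyacyl-CoA dehydrogenase, went from 596 ± 23.5 to between 226 and 269 (−1.26, adjusted p = 5.05e-05, limma), Echs1, the short-chain hydratase, fell by 1.15 (adjusted p = 5.06e-05, limma), and Acads, the short-chain dehydrogenase, fell by 0.73 (adjusted p = 0.00114, limma). Etfdh, which hands electrons from the dehydrogenases to the respiratory chain, fell by 0.84 (adjusted p = 1.61e-04, limma), and Acad12 by 2.13 (adjusted p = 5.26e-05, limma). Without number 1 the list had 11 lower and 0 higher, where 26.1% and 28.1% of all genes were called.

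Peroxisomal oxidation, which shortens very long chains, had 9 of 10 tested genes lower and 1 higher with LPS, with or without number 1, beside the same shares of all genes. Abcd2, a peroxisomal acyl-CoA transporter, went from 832 ± 190 to 60.7 ± 9.50 (−3.74, adjusted p = 4.97e-06, limma). The oxidase Acox3 fell by 1.80 (adjusted p = 2.41e-05, limma). Hsd17b4, the peroxisomal bifunctional enzyme, fell by 0.80 (adjusted p = 1.25e-04, limma). The 1 gene that rose was Acaa1a, a peroxisomal thiolase (1.07, adjusted p = 6.60e-04, limma), opposite in direction to the mitochondrial Acaa2 in the same libraries, and still higher with 1 total per library (0.59); it was named after its value was seen.

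In the list of activation and carnitine entry, 3 of 10 tested genes rose with LPS and 4 fell, close to the 31.4% and 30.3% of all genes. Acsl1, a long-chain acyl-CoA synthetase, went from 1237 ± 48.6 to 6923 ± 296 (2.48, adjusted p = 4.32e-07, limma), and its relative Acsl5 rose by 1.37 (adjusted p = 7.69e-05, limma). Crat, the carnitine acetyltransferase, fell by 1.58 (adjusted p = 2.53e-05, limma) and the fatty acid transporter Slc27a1 by 1.25 (adjusted p = 2.42e-04, limma). Without number 1 the counts were 3 and 3, where 28.1% and 26.1% of all genes were called higher and lower.

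Among 13 tested regulators of the pathway, 4 were called higher and 6 lower with LPS, where 31.4% and 30.3% of all genes were. Pparg, a nuclear receptor for fatty acids, went from 1249 ± 30.6 to 104 ± 21.4 (−3.59, adjusted p = 1.63e-06, limma), and its partner Rxra from 3078 ± 273 to 1311 ± 251 (−1.25, adjusted p = 2.69e-04, limma). The coactivators Ppargc1a and Ppargc1b fell by 3.53 and 1.04 (adjusted p = 9.33e-05 and 0.00648, limma), the former from a low level of 45 to 85. Nrip1, a corepressor, rose by 1.46 (adjusted p = 9.47e-05, limma). The other genes called higher, named here to complete the 4, were Esrra, Acacb and Prkaa2. Esrra went from a mean of 749 in control to 1102 with LPS. Acacb and Prkaa2 were at low levels, with means of 20.7 and 11.7 in control and 47 and 33.3 with LPS. Ppard was not called (984 ± 38.4 and 853 ± 71.8), and Ppara was at 0 to 3 in every library. Without number 1, 3 were higher and 6 lower of 12 tested, where 28.1% and 26.1% of all genes were. Of 6 tested PPAR-responsive genes outside the pathway, 5 were lower and 0 higher, Fabp4 by 2.24 and Plin2 by 1.11 (adjusted p = 7.25e-06 and 6.46e-05, limma), and without number 1 the count was 2 of 5. Pdk4 was at 0 to 20 in every library and was not tested with LPS.

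Of 10 general mitochondrial genes, 4 were called higher with LPS and 0 lower, where 31.4% and 30.3% of all genes were, with a median of 0.21: Timm23 (1.12), Tfam (0.69), Cs (0.62) and Uqcrc2 (0.40), with adjusted p of 5.22e-04, 0.00103, 0.0117 and 0.0302 from limma. With 1 total per library that median was −0.27, with 3 genes higher and 7 lower, and those of other matrix and peroxisomal oxidation were −1.21 and −1.27.

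**Figure D5:**
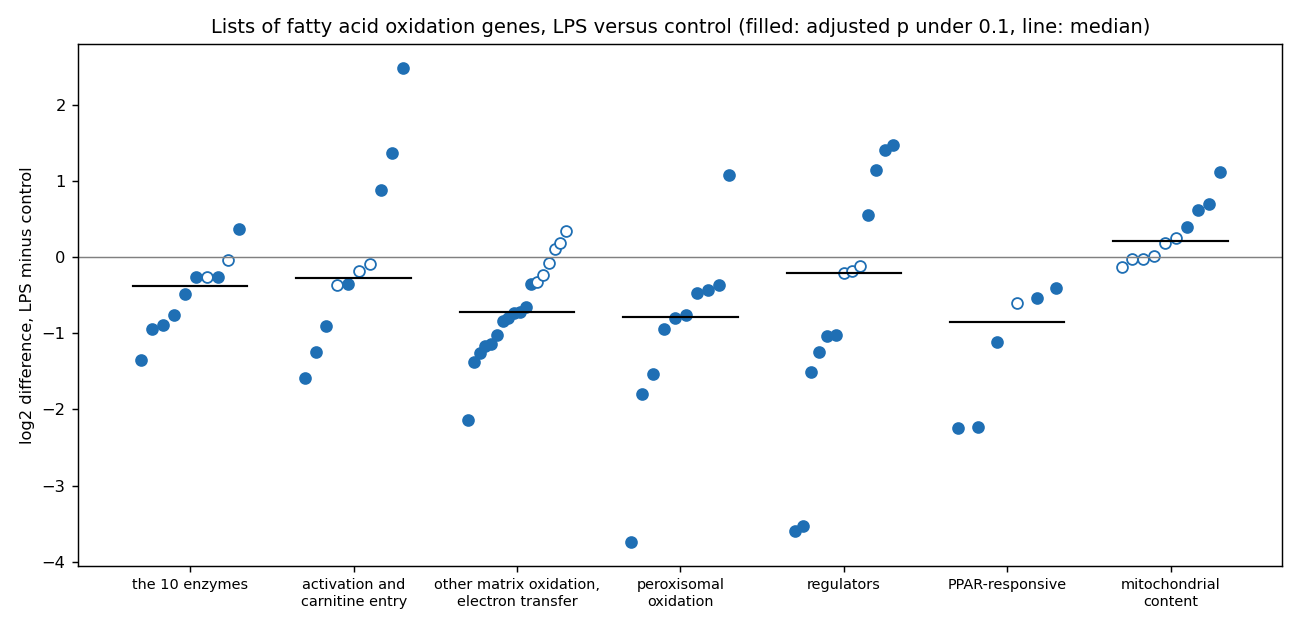
Log2 difference of LPS minus control (y axis) for each tested gene of 7 lists (x axis), with filled points for an adjusted p under 0.1 from limma and a line for the median of the list. The medians are −0.38 for the 10 enzymes, −0.73 for other matrix oxidation, −0.78 for peroxisomal oxidation and 0.21 for mitochondrial content; with every library scaled to 1 total Acadl turns to −0.12 and the last of these medians to −0.27.

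With oxLDL under LPS, where blocked fits called 4.42% of all genes higher and 8.74% lower, and 0 genes without number 3, they called 1 higher and 2 lower of 10 genes of activation and entry, where Crat was higher (0.33, adjusted p = 0.0510, limma) and Acsl3 lower (−0.59, adjusted p = 0.0226, limma). In the other matrix list 1 of 18 genes was called, Etfdh (0.30, adjusted p = 0.0847, limma). Peroxisomal genes had 3 called higher of 10, led by Abcd2 (0.78, adjusted p = 0.0384, limma). Rxra was higher (0.40, adjusted p = 0.0478, limma) and Nrip1 (−0.86, adjusted p = 0.00978, limma) and Acaca (−0.53, adjusted p = 0.0116, limma), which makes the malonyl-CoA that inhibits CPT1, were lower. Cd36 (0.98, adjusted p = 0.00984, limma) and Plin2 (0.46, adjusted p = 0.0256, limma) were higher among 5 tested PPAR-responsive genes. At rest, where 1.8% of all genes were called higher and 2.92% lower, blocked fits called Acaca (−0.44, adjusted p = 0.00180, limma), Acsl3 (−0.71, adjusted p = 0.0159, limma) and Angptl4 (1.34, adjusted p = 4.11e-04, limma), beside Cd36 (0.93, adjusted p = 0.00180, limma), Plin2 (0.44, adjusted p = 0.00529, limma) and Hspd1 (0.22, adjusted p = 0.0239, limma).

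Over the 12 libraries, 9 of the 10 genes correlated positively with the mean of the other 9 (Pearson r from 0.44 for Slc25a20 to 0.94 for Ech1), and Acadl negatively (−0.30). These values describe 12 libraries in 4 groups and share the groups and the scaling. Outside the 10, the genes most like their mean profile among 9437 with a mean of at least 100 were Unc119 (0.98), Hsdl2 (0.97), Preb (0.97), Nudt4 (0.97) and Sort1 (0.96). After the mean of each replicate number was taken off, they were Zw10, Unc119, Edem2, Ttc33 and Fam109a (0.97 to 0.99). The profile of Cpt1a was most like those of Osgin1 (0.95), Slc48a1 (0.95), Akr1b8 (0.94), Cyb5a (0.94) and Htra2 (0.94). With the replicate number taken off, the genes most like Cpt1a were Slc25a20 (0.97), Hprt (0.94), Slc48a1 (0.94), Osgin1 (0.94) and Akr1b8 (0.93). Slc25a20 is the next carrier of the same shuttle, and Hprt is the housekeeping gene to which the study normalized its qPCR. Slc25a20 was not among the genes named before that step. The step took off 1 mean per number, although the libraries of number 1 with and without LPS were not 1 pool.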

How the data were processed

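The submitters' processing notes and the study's methods name Trimmomatic 0.32 for trimming, STAR 2.5.1b for alignment to mm10 (GRCm38), featureCounts for counting against GENCODE, and DESeq2. The deposited values are a score: whole numbers whose spacing showed counts that had been scaled library by library (factors 0.7078 to 1.31). Because they are not raw counts, no count test was used. Here, limma 3.58.1 in R 4.3.3 (eBayes with a variance trend) was run on log2 of the value plus 1, over genes at 10 or more in at least 3 of the libraries fitted, with 6 libraries per comparison and 12 for the interaction. The adjusted p threshold of 0.1 is that of the methods. The genes and lists were chosen with earlier results of these data known. Named genes outside the 10 are a fixed set and at most 4 per list and comparison by p, with the exceptions stated. Some genes that this rule names are not reported here. Columns of per-sample values not used numbered 0. Lengths, positions and overlaps came from GENCODE M21 and promoters from RefSeq (GRCm38.p6). Scripts were tested on simulated data.

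The replicate numbers pair the libraries by the methods (pools divided among groups) and by the data. Number 1 is the exception, since its libraries with and without LPS were not 1 pool. Deviations from group means correlated at 0.234 to 0.657 over 13482 genes in all 18 same-number pairs, and number 1 had 2 sex mixes. Alternatives were other pseudocounts, filters, scalings, fits over all libraries, the replicate block and left-out libraries. Without a block the p-values measure the spread between these pools, and with it the spread left once differences between replicate numbers are removed.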

Additional observations from a re-analysis of the deposited data

How the results depend on the processing

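The alternatives of total scaling, of the block set within each LPS state, and of leaving out every library of a replicate number were chosen after seeing the data. The 4 largest falls with LPS, those of Acaa2, Ech1, Hadhb and Acadm, kept their direction and their call in both LPS comparisons under all 23 alternatives. With 3 libraries a group and differences near 0.1, directions of the smaller effects were not settled at this size.

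With the replicate number as a block, the pairing moved the calls among the 10 genes from 0 to 4 for oxLDL against control and from 0 to 4 for oxLDL+LPS against LPS. All 12 libraries with the block gave 0 in the former and 4 in the latter, and with the block within each LPS state the counts were 2 and 6. Blocked fits without number 1, 2 or 3 gave 2, 1 and 6 at rest and 1, 6 and 0 under LPS. The cause was not tested. For LPS against control the blocked fit without number 3 gave 5, where 6577 of all genes were called. Leaving out 1 library gave 5 to 8, where 6881 to 7690 of all genes were called. The 5 came without control number 2 (6940 of all genes). Without block, leaving out number 3 gave 5 there (5827 of all genes) and 4 for oxLDL+LPS against oxLDL (4940). Leaving out number 1 gave 4 in the latter (5412), and leaving out number 2 gave 1 for oxLDL+LPS against LPS (67). Leaving out 1 library gave 5 to 7 for oxLDL+LPS against oxLDL, where 5838 to 6699 of all genes were called.

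Scaling reversed some directions. Acadl in LPS against control became −0.12 with quantile normalization and with 1 total per library. In oxLDL+LPS against oxLDL, quantile normalization and 1 total gave −0.39 and −0.32 for Cpt1a, −0.072 and −0.35 for Slc25a20, and −0.31 and −0.26 for Acadl. With 1 total, Cpt2 became 0.074 in oxLDL+LPS against LPS, and the interactions of Cpt2, Hadha and Hadhb became 0.032, 0.028 and 0.0094.

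Among the 10 genes, leaving out libraries, singly or by number, reversed only values that were not called. In oxLDL against control Acadm ran from −0.056 to 0.11 (−0.045 with the block and without number 2) and Cpt2 from −0.012 to 0.10. In LPS against control Slc25a20 ran from −0.11 to 0.045. In oxLDL+LPS against LPS Acadl ran from −0.027 to 0.13, Hadha from −0.059 to 0.075 (−0.024 with the block and without number 1) and Cpt2 from −0.11 to 0.10 (0.096 with the block and without number 2). In oxLDL+LPS against oxLDL Cpt1a ran from −0.082 to 0.32 (−0.082 also with the block and without number 1) and Slc25a20 from −0.062 to 0.17 (−0.0050). Of the interactions, Cpt2 ran from −0.14 to 0.050 (0.050 also with the block and without number 2), Slc25a20 from −0.018 to 0.21, Hadhb from −0.20 to 0.037 and Ech1 from −0.010 to 0.19.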
